A study of Mus musculus with 8 samples.

Results

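Windows that carry more than 1 repeat class are stretches of the mouse genome where repeats of different kinds meet, such as the tail of a B2 element running into a simple repeat. The deposited table of polyadenylated 3′ ends in repeats names the classes of each window. A window was a member where its position is listed in 1 row and its entry names at least 2 classes. This rule uses no measured value and gave 7307 of the table's 243007 windows, against 193720 listed once with 1 class. All members are 25 bases wide, 7253 name 2 classes and 54 name 3, in 130 combinations. The largest combinations were Simple_repeat with B2 (2397 windows), Simple_repeat with Alu (1732), B4 with Alu (714), Alu with ERVL (470) and Alu with Low_complexity (303), and 45 combinations had 1 window each. Windows of the same combination that overlap on 1 strand form 6351 loci.

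The study measured RNA 3′ ends in dissociated dorsal root ganglia of lumbar levels L4 to L6 from mice, 3 days after a crush of 1 sciatic nerve. It compares 4 injury with 4 naïve libraries, which the study's design text takes from the injured and the naïve ganglia of 4 mice. The labels give no strain, sex, age or genotype, and only some neurons of these ganglia send their axon into the sciatic nerve. Gene counts per library ranged from 16539644 to 28950551, and window values below are in CPM, window counts scaled to the library's gene counts, with mean ± SD over n = 4 libraries per group. Atf3, a stress-induced transcription factor of axotomised neurons, went from 62.1 ± 8.74 to 320 ± 29.6 CPM, with every injury library above every naïve one. The 8 sensory neuron markers summed to 11772 to 12216 CPM in naïve and 11616 to 13403 CPM in injury libraries, and the 3 skeletal muscle markers to at most 4.39 CPM. The 5 macrophage markers summed to 5.55 to 10.8 CPM in naïve and 21.8 to 34.7 CPM in injury libraries, with 4 of 5 called higher. The 4 neutrophil markers summed to 331 to 1200 CPM in naïve and 116 to 405 CPM in injury libraries, with 1 called lower, and among the sensory neuron markers 1 was higher and 2 lower. The part of other cell types in the results below was not tested.

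B2, B4 and the mouse B1 elements, which repeat annotation files under Alu, are short interspersed elements. RNA polymerase III transcribes them from a promoter inside the element, and they also lie within genes, where RNA polymerase II reads through them. The 3′ end of a B2 element is rich in A and often holds polyadenylation signals, so that B2 copies can supply the 3′ end of an mRNA. Simple repeats are tandem copies of a short unit and low-complexity stretches are runs of biased base composition. B2 RNA is known to rise in stressed mouse cells. L1 elements and the long terminal repeat families ERVK, ERVL and ERVL-MaLR are retrotransposons.

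Sequence could be read only for windows that lie in an annotated exon, here from GENCODE vM21 transcripts on GRCm38, on the strand of the window. The examples below, chosen with their values known, are called exonic windows and uncalled ones of the main combinations, with and without the motifs described after them, and do not cover every exonic window. The capitals mark the polyadenylation signal AATAAA or its variant ATTAAA, which overlap in some windows. The table does not state whether its coordinates count from 0 or 1, and the 25 bases from the base after the start to the end were read.
L1 with Simple_repeat in the 3′ UTR of Mrgprd, chr7:145324037-145324062: gttaatagtaaatagtaacAATAAA
Simple_repeat with B2 in an exon of Fry, chr5:150348324-150348349: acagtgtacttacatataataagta
Simple_repeat with B2 in an exon of Ccdc62, chr5:123963414-123963439: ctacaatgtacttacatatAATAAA
Simple_repeat with B2 in the 3′ UTR of Cryzl2, chr1:157492429-157492454: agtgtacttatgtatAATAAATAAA
Simple_repeat with B2 in the 3′ UTR of Apopt1, chr12:111734145-111734170: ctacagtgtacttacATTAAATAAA
Simple_repeat with B2 in an exon of Tnfaip8l1, chr17:56166428-56166453: tactcatagaAATAAAgtaaatctt
Simple_repeat with B2 in the 3′ UTR of Dnajb14, chr3:137914663-137914688: aaaaaaaaaaaaaaaagaaaagaaa
Simple_repeat with Alu in the 3′ UTR of Aldh9a1, chr1:167368035-167368060: gagaaatcctgtctcaaacaaaaca
Simple_repeat with Alu in the 3′ UTR of Haus2, chr2:120621259-120621284: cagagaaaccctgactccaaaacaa
Simple_repeat with Alu in the 3′ UTR of Pgm2l1, chr7:100276917-100276942: agagatctagaccaataagatagat
B4 with Alu in an exon of Teddm2, chr1:153899050-153899075: gaattccaggacaaccagggtttca
Alu with ERVL in the 3′ UTR of Ddi2, chr4:141681484-141681509: agctacattagtgacaccctgtctt
ERVK with Alu in the 3′ UTR of Eci1, chr17:24439180-24439205: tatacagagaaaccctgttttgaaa

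The stretch TGTACTTA stands in the windows of Fry, Ccdc62, Cryzl2 and Apopt1, and GAGAAA in those of Aldh9a1, Haus2 and Eci1 but not in those of Pgm2l1, Teddm2 and Ddi2. Of the 6351 loci, 281 (4.42%) had a sequence, too few for a check over all members. Within these, AATAAA on the window's strand stood in 38 (13.5%), against 1844 of 9579 single-class loci with a sequence (19.3%). By combination it stood in 16 of 41 Simple_repeat with B2 loci (39%), 1 of 42 Simple_repeat with Alu loci (2.38%) and 5 of 59 B4 with Alu loci (8.47%). For loci of 1 class the share was 29.6% for B2 and 3.02% for Alu. TGTACTTA, searched on the same strand, stood in 16 of the 41 Simple_repeat with B2 loci (39%) and 28.6% of B2 loci of 1 class, and GAGAAA in 16 of the 42 Simple_repeat with Alu loci (38.1%) and 40.5% of Alu loci of 1 class. Over all single-class loci these motifs stood in 6.39% and 12.2%. TGTACTTA and GAGAAA were not among the planned motifs, so their shares only describe these sequences. A match describes these letters only, and a window without one may have a signal before it.

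Of the 7307 windows, 4133 (56.6%) had no count in any library, as had 56.9% of single-class windows. At least 1 count was found in 3174, a mean of at least 1 CPM in 579, and 857 passed the filter on low counts and were tested. The members held 0.588% of the counts of the window table, and the 10 windows with the most counts held 18.5% of the members' counts. All 5127 members that name Simple_repeat or Low_complexity fall on the plus strand, as do all 8321 single-class windows of these classes. The other members divide into 1057 plus and 1123 minus windows. Whether the repeat annotation gives Simple_repeat and Low_complexity a strand could not be settled here. For windows that name them, placement in a gene or opposite to it carries this limit. On the same strand, 156 windows (2.13%) overlap a 3′ UTR, 200 (2.74%) another exon, 2447 (33.5%) an intron, 71 lie within 1000 bases past a gene end, and 4433 (60.7%) lie in no gene. The corresponding shares for single-class windows were 2.56%, 3.2%, 30.9%, 1.29% and 62.1%. The treatment of multi-mapping reads is not stated, and 12 of the 310 loci with at least 200 counts had counts within 5% (or 2 counts) of a distant window in all 8 libraries. On the same strand, 668 members overlap a single-class window, and 125 of these have counts identical to those of that window. A read may therefore stand at several windows, also at a member and at a single-class window set beside it. Sums over windows are not numbers of molecules.

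Repeat-junction windows rose more often than they fell after injury, and their share of rises was below that of the table as a whole. Of the 857 tested, 206 (24%) were higher and 11 (1.28%) lower in injury at an adjusted p under 0.05 in edgeR's quasi-likelihood test over all windows, and 640 were not called. Among all 33851 windows tested, 36.4% were higher and 2.70% lower, and among single-class windows 44.7% and 1.51%. The median log2 fold change was 0.75 over the tested members and 0.72 over all tested windows. Every injury library lay above every naïve library in 204 members (23.8%, against 37.2% of all tested windows) and below in 12 (1.4%, against 3.62%). A window that is high in 1 group only can pass the filter through that group. With each locus counted once, 129 of 569 were higher and 5 lower, against 31.4% and 2.77% of all loci. In bulk ganglia, more cells of a type and more RNA per cell cannot be told apart.

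The split depends on the scaling. With factors computed from the windows themselves, which moved the median log2 fold change of all windows from 0.72 to 0.12, 111 members were higher and 54 lower. These were of 834 members tested, and of all 32868 windows tested 6642 were higher and 5202 lower. The replicate block, with the replicate number as the mouse, gave 181 higher and 5 lower of 857 members. Over all 33851 windows it gave 11057 higher and 754 lower. The count of lower windows was 5 without naïve 1, 7 without naïve 2 or naïve 3, 4 without injury 2 and 6 without injury 4.

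Windows joining a simple repeat to a B2 element held most of the members' counts and, as 544 of the 857 tested members, most of the calls. Of these 544, 138 were higher and none lower, with a median log2 fold change of 0.90. That is 25.4%, near the 24% of all tested members and below the 36.4% of all tested windows. It is also below windows of B2 alone, of which 10617 of 18204 (58.3%) were higher at a median of 1.24. The difference between these shares was not tested, since windows within a library are not independent. At an unadjusted p under 0.05, 190 were higher and 1 lower. DESeq2, which tested 952 windows of this combination against edgeR's 544, called 207 higher and 2 lower. Over all members it tested 2157 against edgeR's 857. Summed over all 2397 windows, naïve libraries 1 to 4 held 2738, 2057, 2810 and 2835 CPM, and injury libraries 1 to 4 held 5972, 2263, 2147 and 6883 CPM. Injury 1 and injury 4 were far above every naïve library, whereas injury 2 and injury 3 lay within the naïve range, so the groups overlap. The means were 2610 ± 371 and 4316 ± 2466 CPM, a log2 ratio of 0.73. Members that name no B2 summed to 1027 ± 16.7 CPM in naïve and 1111 ± 95.6 CPM in injury libraries, with overlap. This sum includes L1 with Simple_repeat windows, at 269 ± 21.9 CPM in naïve and 148 ± 11.1 CPM in injury libraries. Without the overlapping Mrgprd windows described below, these held 13.1 ± 2.23 and 8.74 ± 4.29 CPM. The small difference without B2 therefore includes a fall at 1 gene.

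**Figure D1:**
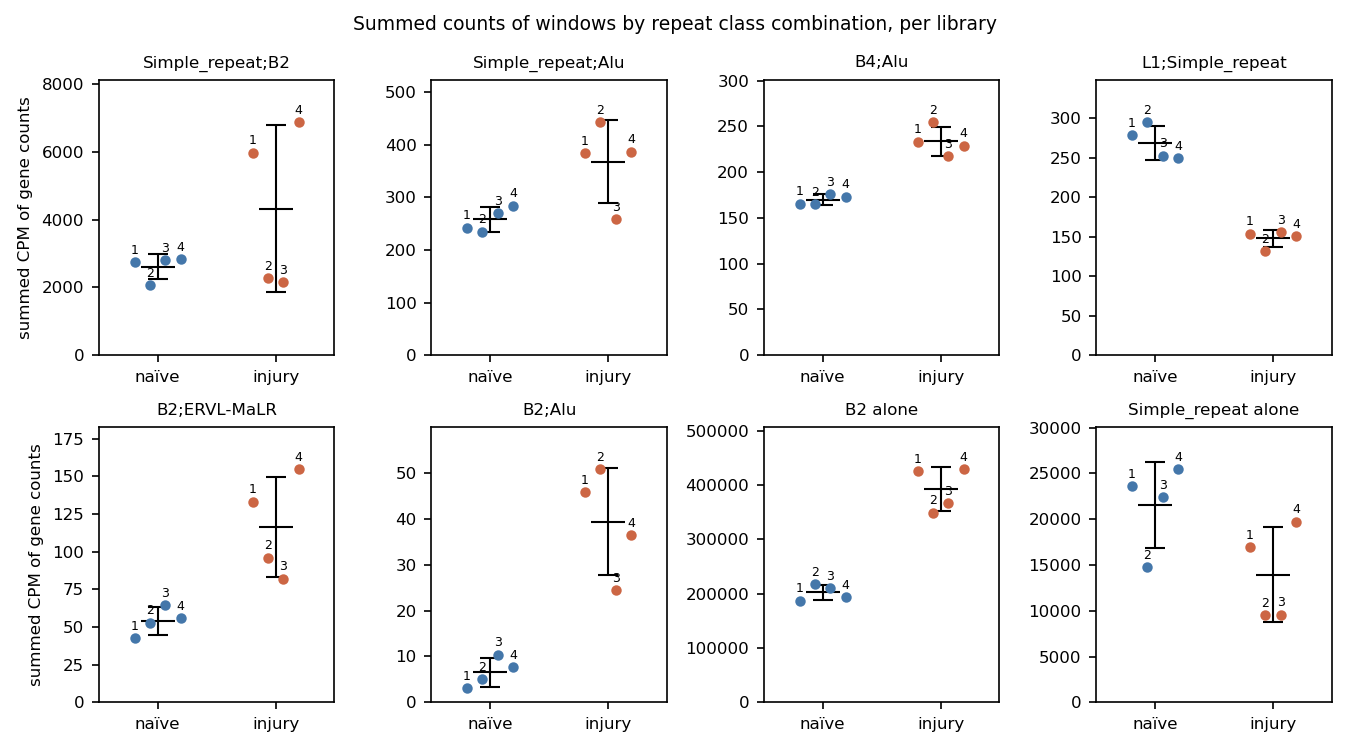
Summed CPM (linear axes from 0) in each library for 6 class combinations and, for comparison, windows of B2 alone and Simple_repeat alone. Points are libraries numbered 1 to 4, and bars are the mean and SD of 4 libraries. The Simple_repeat with B2 sums of injury 2 (2263 CPM) and injury 3 (2147 CPM) sit among the naïve libraries, and the L1 with Simple_repeat sums are lower in all injury libraries.

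The split between injury libraries ran through most loci of this combination. Of 247 tested Simple_repeat with B2 loci with a mean of at least 1 CPM, injury 2 and injury 3 were the 2 lowest injury libraries in 194 (78.5%). In 132 (53.4%) both injury 1 and injury 4 were at least 2-fold above both others, and the highest injury library was a median 4.02-fold above the lowest. Of the 105 other multi-class loci, 20 (19.0%) had injury 2 and injury 3 lowest and 3 (2.86%) had the 2-fold gap, with a median fold of 1.89. Among 8591 loci of B2 alone these were 43.6%, 8.14% and 1.74-fold. Loci within a library are not independent, so these shares are given without a test.

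Other values moved with the same libraries. Windows of Simple_repeat alone summed to 23595, 14758, 22421 and 25454 CPM in naïve libraries 1 to 4 and to 16972, 9537, 9577 and 19744 CPM in injury libraries 1 to 4, with naïve 2, injury 2 and injury 3 lowest in their groups. For 210 genes with less than 20% GC in the last 100 bases of their longest transcript, the median log2 deviation from the group mean was 0.279 and 0.331 in injury 1 and 4, and -0.232 and -0.332 in injury 2 and 3. In naïve libraries 1 to 4 it was 0.038, -0.135, 0.056 and 0.095. Their part in the Simple_repeat with B2 result was not tested. With naïve 2, injury 2 and injury 3 left out, a choice made after seeing the data, 260 of 667 Simple_repeat with B2 windows (39%) were higher. Of the same windows 1 was lower, and the median log2 fold change was 1.32. Under this choice 315 of 1063 members (29.6%), 54.2% of windows of B2 alone and 32.2% of all tested windows were higher. Injury 2 and injury 3 were the lowest injury libraries at most of these same loci, so leaving them out favours a higher share. The 39% is therefore no support for a rise and cannot be set against the main fit.

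**Figure D2:**
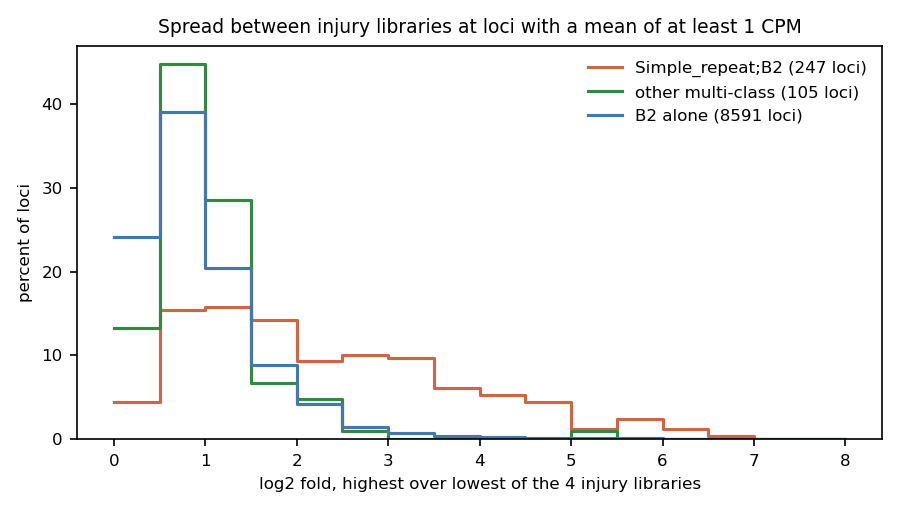
Percent of loci by the log2 fold between the highest and the lowest of the 4 injury libraries, with 0.1 CPM added to each, for tested loci with a mean of at least 1 CPM. The Simple_repeat with B2 line extends far to the right of the other multi-class loci and of B2 alone, whose median folds were 4.02, 1.89 and 1.74.

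Of the 12 loci with the most counts, 11 were Simple_repeat with B2. The largest, chr10:128433039-128433064 in an intron of Rnf41, which encodes a ubiquitin ligase, held 113, 153, 117 and 110 CPM in naïve and 179, 96.1, 88.1 and 158 CPM in injury libraries 1 to 4. The groups overlapped, the log2 fold change was 0.08 with an SE of 0.23, and edgeR's adjusted p was 0.817. Leaving out naïve 2, injury 2 and injury 3, the highest naïve and the lowest injury libraries here, gave a log2 fold change of 0.57. That choice favours a rise, so this fit is no support for one. The window's counts were within 5% (or 2 counts) of those of a distant window, so the copy that its reads came from is not settled. Rnf41 itself, over the gene table, was at 111 ± 7.14 and 104 ± 2.41 CPM.

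Other large loci showed the library split in its strongest form. At chr12:108752882-108752907, outside genes, naïve libraries held 48.5, 19.6, 51.6 and 51.6 CPM and injury libraries 90.1, 4.42, 4.60 and 120 CPM. Injury 2 and injury 3 were below every naïve library and injury 1 and injury 4 above, and the locus was not called (adjusted p = 0.788, edgeR). At chr18:56674589-56674614 the values were 21.7, 14.3, 34.5 and 43.4 CPM in naïve and 129, 11.95, 7.99 and 177 CPM in injury libraries, again with the injury libraries on both sides of the naïve ones. At chr1:165149096-165149121, opposite an intron of the transcription factor gene Tbx19, naïve libraries held 15.1, 12.2, 15.7 and 12.2 CPM and injury libraries 132, 20.9, 18.6 and 156 CPM. Here all injury libraries exceeded all naïve ones, and the locus was called higher (adjusted p = 0.00892, edgeR). The counts at chr5:111294202-111294227, rank 12, were nearly the same in all libraries, from 302 against 313 in naïve 1 to 2571 against 2587 in injury 4. These 3 loci were chosen after their values were seen.

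**Figure D3:**
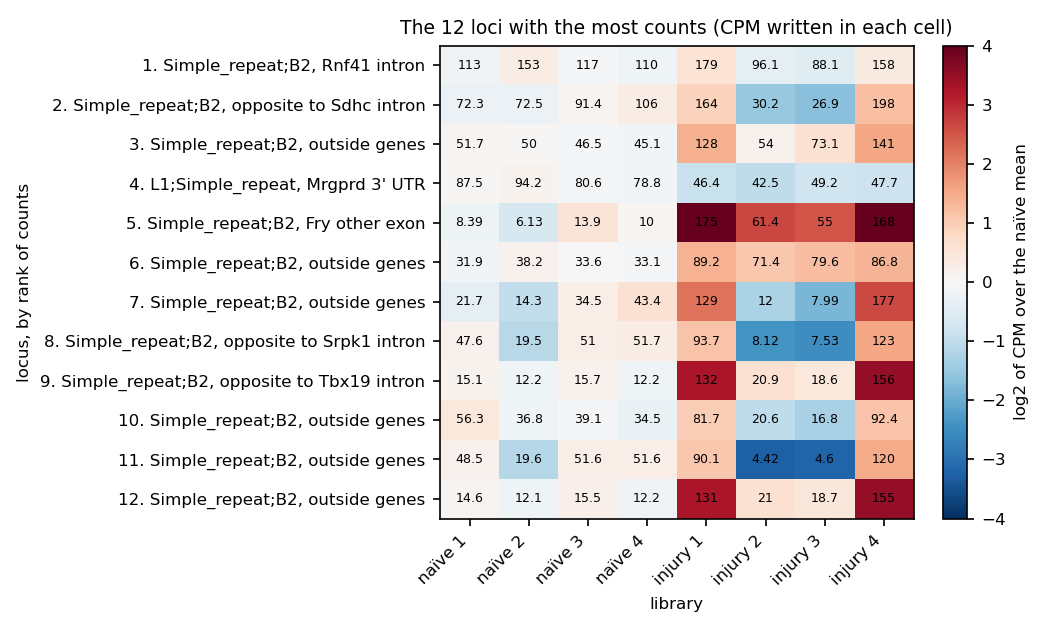
CPM (written in the cells) of the 12 loci with the most counts in each library, coloured by the log2 of CPM over the naïve mean, red above and blue below. Injury 2 and injury 3 are blue at ranks 1, 2, 7, 8, 10 and 11 where injury 1 and injury 4 are red, and the Mrgprd locus at rank 4 is blue in all injury libraries.

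The 8 loci named for the smallest p, a choice that favours little spread, had every injury library above every naïve one. The first was an ERVK with B2 window on the minus strand, chr17:25805685-25805710, opposite an intron of Gm26694. It held 4.39, 4.59, 7.45 and 6.25 CPM in naïve and 39.7, 39.1, 42.4 and 43.6 CPM in injury libraries 1 to 4. All 4 injury libraries were close together and far above the naïve ones (log2 fold change 2.86, SE 0.19, adjusted p = 2.54e-06, edgeR).

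Next was a Simple_repeat with B2 window in an intron of Etnk1, the gene of ethanolamine kinase, at chr6:143185919-143185944. It held 16.7, 12.5, 16.2 and 14.1 CPM in naïve and 65.7, 59.3, 61.3 and 81.1 CPM in injury libraries, a rise in 4 of 4 pairs with no overlap between the groups (adjusted p = 3.53e-06, edgeR). For the Etnk1 gene the log2 fold change was -0.05 ± 0.08 (SE), with an adjusted p of 0.677. The window rose with no change called for the gene, and the difference between them was not tested.

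At chrX:115111058-115111083, a Simple_repeat with B2 window outside genes, naïve libraries held 31.9, 38.2, 33.6 and 33.1 CPM and injury libraries 89.2, 71.4, 79.6 and 86.8 CPM. The groups did not overlap, and the log2 fold change was 1.26 (SE 0.12, adjusted p = 2.94e-05, edgeR). At chr18:70024353-70024378, opposite an intron of Rab27b, a gene of vesicle secretion, the level went from 2.84 ± 1.34 to 32.6 ± 9.79 CPM, higher in 4 of 4 pairs. Its injury libraries held 40.1, 23.8, 24.5 and 42.0 CPM, with injury 1 and injury 4 above the other two. At chr3:127443895-127443920, opposite an intron of the ankyrin gene Ank2, it went from 7.33 ± 0.622 to 29.0 ± 6.90 CPM, with a log2 fold change of 1.98. At chr11:116278357-116278382 it went from 2.96 ± 0.632 to 13.4 ± 1.75 CPM, and at chr17:33994663-33994688 from 0.403 ± 0.104 to 3.89 ± 1.10 CPM, both outside genes. All these Simple_repeat with B2 windows kept their call in the replicate block and with any 1 library left out.

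Among called loci with a mean of at least 1 CPM and a rise in every pair, the largest rises were at loci with almost no counts in naïve ganglia. At chr17:16181545-16181570, a Simple_repeat with B2 window outside genes, no naïve library had a count, and injury libraries 1 to 4 had 70, 74, 14 and 49 counts. Against a floor of 3 counts over the naïve group the rise was at least 61.9-fold (adjusted p = 0.000528, edgeR). Of the 3 tested loci with no naïve count all were called higher, and they passed the filter through the injury libraries.

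The next under these limits were Simple_repeat with Alu. Loci below 1 CPM reached higher fitted values and are not ranked here. At chr19:47453157-47453182, opposite an intron of Sh3pxd2a, naïve libraries had 0, 1, 3 and 8 counts and injury libraries 104, 186, 64 and 98 (log2 fold change 5.02, SE 0.65, adjusted p = 0.000173, edgeR). At chr19:56384866-56384891, opposite an intron of Nrap, naïve libraries had 3, 2, 2 and 12 counts and injury libraries 103, 218, 102 and 77 (log2 fold change 4.50, SE 0.51, adjusted p = 7.07e-05, edgeR). Both were near 0 in naïve ganglia and present in every injury library. Naïve 4 was the highest naïve library at both, and without it the log2 fold changes were 6.05 and 5.42.

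Among the others were a B4 with B2 window on the minus strand opposite AU040320, chr4:126763469-126763494, which went from 0.189 ± 0.140 to 3.18 ± 0.663 CPM, and a Simple_repeat with B2 window opposite an intron of the histone demethylase gene Kdm1a, chr4:136598974-136598999. The latter held 0.434, 0.338, 0.573 and 2.08 CPM in naïve and 13.6, 12.8, 10.6 and 16.2 CPM in injury libraries. Its log2 fold change was 3.93 (SE 0.51, adjusted p = 0.00018, edgeR), and all injury libraries were above all naïve ones. Without naïve 4 it was 4.88.

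**Figure D4:**
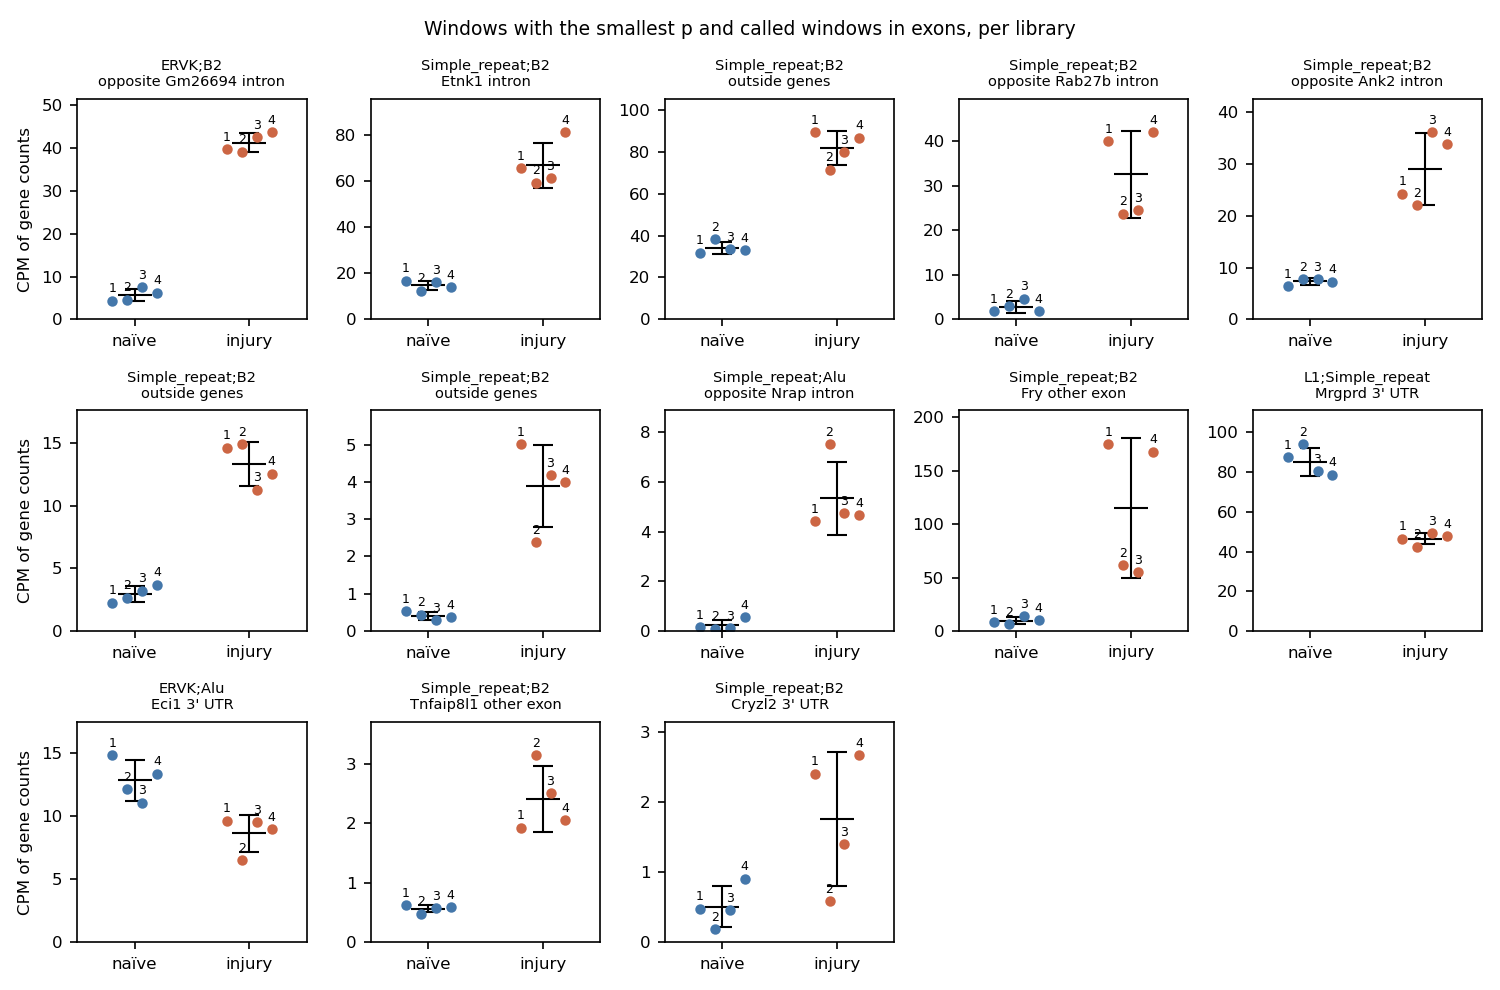
CPM in each library (linear axes from 0) of the 8 windows with the smallest p and of the called windows in exons, titled by class combination and by the gene they lie in or opposite to. Points are libraries numbered 1 to 4, and bars are the mean and SD of 4 libraries. The groups are apart in every panel except Cryzl2, where injury 2 (0.587 CPM) lies within the naïve values.

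Of 103 tested Simple_repeat with Alu windows, 27 (26.2%) were higher and 1 (0.971%) lower, with a median log2 fold change of 0.54. Of all tested windows 36.4% were higher and 2.70% lower. Windows of Alu alone had 811 higher (22.2%) and 36 lower of 3655 (median 0.52). The Simple_repeat with Alu sums were 241.9, 234.8, 270.0 and 284.2 CPM in naïve and 383.4, 442.9, 258.0 and 386.6 CPM in injury libraries. Injury 3 fell within the naïve range and the other 3 injury libraries were above it. With each locus counted once, 14 of 68 (20.6%) were higher, against 31.4% of all loci.

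B4 with Alu windows summed to 165.4, 164.6, 176.1 and 173.1 CPM in naïve and 233.3, 254.7, 217.1 and 228.8 CPM in injury libraries, all injury libraries above all naïve ones (log2 ratio 0.46). Of 57 tested, 10 (17.5%, against 36.4% of all tested windows) were higher and none lower in edgeR, with a median log2 fold change of 0.21. At an unadjusted p under 0.05, 13 were higher and none lower, and DESeq2 called 11 and none. All 10 lie in no gene on their strand, where 21 were tested, and of the 36 in exons and introns none was called by edgeR (3 higher at an unadjusted p). With each locus counted once, 3 of 31 (9.68%) were higher, against 31.4% of all loci.

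In several small combinations of B2 or Alu with another transposon some windows were called higher. Over all tested windows 36.4% were higher and 2.70% lower. All 7 tested B2 with Alu windows, from 4 loci, were higher, and their sums went from 3.09, 5.02, 10.4 and 7.60 CPM to 45.8, 50.8, 24.5 and 36.4 CPM. The leading locus, chr17:65917576-65917601, went from 1.08 ± 0.789 to 11.6 ± 3.78 CPM, a log2 change of 3.43 ± 0.51 (SE) at an adjusted p of 0.000451 in edgeR. B2 with ERVL-MaLR summed to 54.0 ± 9.06 CPM in naïve and 116 ± 33.4 CPM in injury libraries, with no overlap. Its main window, chr19:46181128-46181153 opposite an intron of Gbf1, was at 25.8 ± 4.83 and 56.4 ± 15.7 CPM, but its counts were near those of a window elsewhere. L1 with Alu had 5 of 9 windows higher and none lower in edgeR, with the same counts at an unadjusted p. DESeq2, over a larger set of windows, called 10 higher and none lower. The L1 with B2 window with the most counts, chr11:115056998-115057023, went from 0.573 ± 0.445 to 2.78 ± 0.425 CPM (adjusted p = 0.018, edgeR), the single call among 6 tested. That call was lost with factors from the windows themselves (adjusted p = 0.0619) and without naïve 2, injury 2 and injury 3 (0.0679). Simple_repeat with Low_complexity had none called in either direction of 11 tested, by edgeR, at an unadjusted p or by DESeq2, at a median log2 fold change of -0.19. Alu with ERVL had 1 higher and 2 lower of 17.

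Rises were also called at windows that name a small cytoplasmic RNA (scRNA). The leading scRNA with Satellite window, chr16:21546369-21546394 in an intron of Vps8, went from 3.38 ± 0.469 to 7.86 ± 2.29 CPM at an adjusted p of 0.00304 in edgeR. The leading scRNA with Alu window, chr11:108905312-108905337, went from 4.17 ± 1.30 to 7.92 ± 1.29 CPM at an adjusted p of 0.0177. For scRNA with Simple_repeat at chr11:119098014-119098039 the values were 0.381 ± 0.0267 and 0.939 ± 0.2004 CPM with an adjusted p of 0.0275. That last call was lost with the replicate block (adjusted p = 0.0891, edgeR) and without any 1 library other than injury 1 (up to 0.0951). With factors from the windows themselves all 3 calls were lost, at adjusted p of 0.0761, 0.351 and 0.205 in this order. Without naïve 2, injury 2 and injury 3 the last 2 named were also lost, at 0.154 and 0.197.

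**Figure D5:**
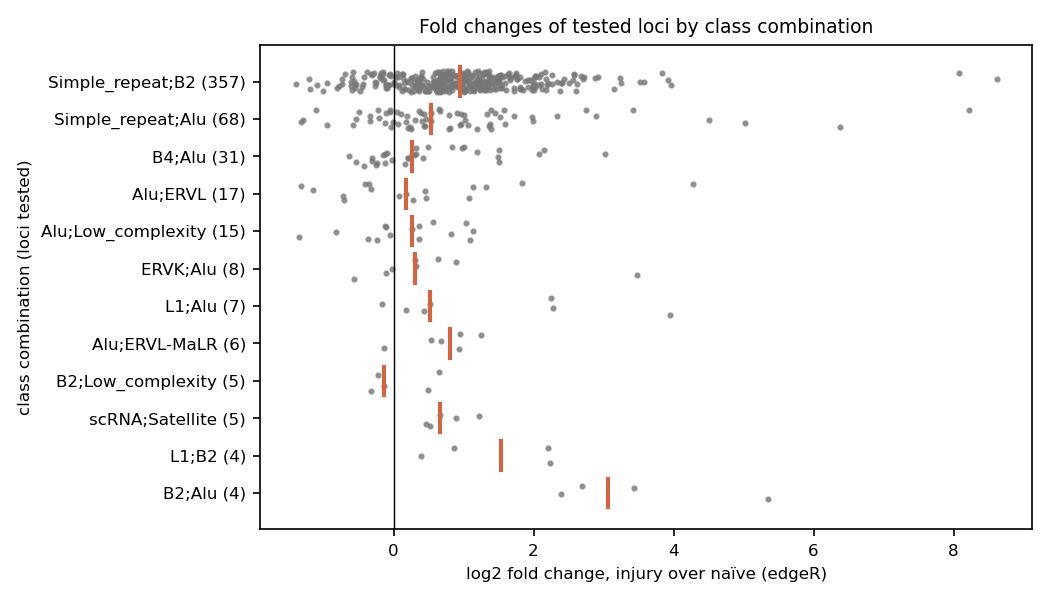
The log2 fold change, injury over naïve, of each tested locus (grey points, spread vertically for view) for combinations with at least 4 tested loci, whose number is in parentheses, with the median as a bar. Simple_repeat with B2 spans both sides of 0 with a median to the right. The 3 loci with no naïve count have fitted values that are not bounds.

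Position in a gene went with a different balance of calls, as it did for single-class windows. Of 46 tested windows in a 3′ UTR on the same strand, 1 was higher and 6 lower, with a median log2 fold change of -0.20. The 6 lower windows were 3 in Mrgprd and 3 in Eci1. In introns 39 were higher and 2 lower of 207 (median 0.68), and in no gene 158 were higher and 3 lower of 558 (median 0.90). Single-class windows had medians of -0.12, 0.92 and 1.15 at these positions. In 3′ UTRs 117 of them were higher and 161 lower of 1793. In introns these were 2562 and 69 of 6209, and in no gene 8670 and 116 of 16678. With same-locus windows taken as 1, 43 exonic loci were tested, of which 3 were higher, 2 lower and 38 not called.

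The fall with the smallest p was in Mrgprd, a receptor gene that marks a class of nonpeptidergic nociceptors. Its L1 with Simple_repeat window, whose sequence above ends in AATAAA, held 87.5, 94.2, 80.6 and 78.8 CPM in naïve and 46.4, 42.5, 49.2 and 47.7 CPM in injury libraries. Every injury library was below every naïve one, and the log2 fold change was -0.88 ± 0.11 (SE) at an adjusted p of 0.000175 in edgeR. The window held a mean 94.9% of the gene's counts in naïve and 95.2% in injury libraries, and the gene itself fell from 89.9 ± 7.50 to 48.8 ± 2.84 CPM. Without the Mrgprd windows, L1 with Simple_repeat summed to 13.1 ± 2.23 and 8.74 ± 4.29 CPM, with overlap.

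A fall of the same kind was seen in Eci1, a gene of mitochondrial fatty acid oxidation. Its ERVK with Alu window held 14.8, 12.1, 11.1 and 13.4 CPM in naïve and 9.65, 6.49, 9.53 and 8.95 CPM in injury libraries, with no overlap (log2 fold change -0.57, SE 0.19, adjusted p = 0.0353, edgeR). The call was lost with the replicate block (adjusted p = 0.0585) and without naïve 1, 2 or 4 or injury 1, 2 or 4 (up to 0.0943), and without naïve 2, injury 2 and injury 3 together (0.0986). DESeq2 did not call it either (adjusted p = 0.0704). The window held 67.1% and 67.4% of the gene's counts, and Eci1 went from 19.1 ± 1.08 to 12.8 ± 1.83 CPM (adjusted p = 0.0228).

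In Fry, which encodes a microtubule-binding protein, window and gene moved in opposite directions. The Simple_repeat with B2 window held 8.39, 6.13, 13.9 and 10.05 CPM in naïve and 175, 61.4, 55.0 and 168 CPM in injury libraries. All injury libraries were above all naïve ones, with injury 1 and injury 4 highest (log2 fold change 3.58, SE 0.44, adjusted p = 0.000122, edgeR). The gene count fell from 55.6 ± 1.57 to 29.2 ± 6.08 CPM (log2 change -0.86 ± 0.13, SE, at an adjusted p of 8.58e-04). The window's counts were a mean 17.3% of the gene's in naïve and 378% in injury libraries, and in the latter the window held more counts than the gene, so not all of them are in the gene's count.

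Small rises were called in 2 further exons. The Simple_repeat with B2 window in Tnfaip8l1 held 0.627, 0.483, 0.573 and 0.588 CPM in naïve and 1.93, 3.14, 2.51 and 2.06 CPM in injury libraries, with no overlap (log2 fold change 2.08, SE 0.33, adjusted p = 0.0006, edgeR). The Tnfaip8l1 gene count had a log2 fold change of 0.87 with an adjusted p of 0.0902. The Cryzl2 window held 0.482, 0.193, 0.458 and 0.905 CPM in naïve and 2.40, 0.587, 1.39 and 2.66 CPM in injury libraries, with overlap. Its adjusted p was 0.0341, and the call was lost without naïve 1, 2 or 3 or injury 1 or 4 (up to 0.101). With factors from the windows themselves it was also lost (adjusted p = 0.127, edgeR).

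Most exonic windows were not called. In Aldh9a1, an aldehyde dehydrogenase gene, the Simple_repeat with Alu window was at 18.7 ± 3.35 and 16.3 ± 5.49 CPM (adjusted p = 0.585, edgeR). The B4 with Alu window in Tradd, an adaptor of TNF receptors, was at 13.7 ± 3.10 and 12.6 ± 0.749 CPM, and the Alu with ERVL window in Ddi2 at 21.5 ± 1.53 and 16.2 ± 4.51 CPM. The A-rich window in Dnajb14, an endoplasmic reticulum co-chaperone gene, showed the library split, with 15.0, 4.44, 13.7 and 17.2 CPM in naïve and 11.7, 0.207, 0.976 and 18.6 CPM in injury libraries. Naïve 2, injury 2 and injury 3 were the lowest, and the window was not called (adjusted p = 0.602). The Apopt1 window had the same 3 libraries lowest, at 1.98, 0.622 and 0.186 CPM, against 3.60 to 7.57 CPM in the other 5, and was not called.

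Falls outside exons were few. An Alu with ERVL window outside genes, chr15:103397598-103397623, held 2.80, 2.41, 3.49 and 3.35 CPM in naïve and 1.67, 1.24, 1.44 and 1.03 CPM in injury libraries, with no overlap (log2 fold change -1.15, SE 0.28, adjusted p = 0.00828, edgeR). An Alu with Low_complexity window in an intron of AC131675.3, chr18:35030816-35030841, was at 4.92 ± 1.05 and 2.78 ± 0.772 CPM with an adjusted p of 0.0396, and the call was lost without naïve 1, 3 or 4 or injury 1, 2 or 3 (up to 0.0971). A Simple_repeat with ERVL-MaLR window opposite Ccdc60, chr5:116213887-116213912, was at 1.495 ± 0.856 and 0.584 ± 0.109 CPM with overlap. Its adjusted p was 0.0478, and the call was lost with the replicate block (0.0852) and without any 1 library other than naïve 4 (up to 0.163). Without naïve 2, injury 2 and injury 3 together both of these last calls were lost, at adjusted p of 0.0749 and 0.226 in edgeR. DESeq2 did not call these windows either, at adjusted p of 0.0587 and 0.0764 in the same order.

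Higher calls among genes that transcribe, bind or process RNA of short interspersed elements were near the background. Of 33 listed genes, 31 were tested, and 3 were higher and none lower in edgeR (6 higher and 1 lower at an unadjusted p under 0.05). Of all 13791 genes tested, 10.1% were higher and 7.81% lower, and the median log2 fold change was 0.07 for the list and -0.02 for all genes. Polr3d, a subunit of RNA polymerase III, rose from 32.1 ± 3.27 to 41.2 ± 1.66 CPM (adjusted p = 0.0116, edgeR). Papola, the canonical poly(A) polymerase, rose from 93.6 ± 5.22 to 108 ± 4.68 CPM (adjusted p = 0.025).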

How the data were processed

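Polyadenylated 3′ ends were sequenced with QuantSeq 3′ REV libraries, per the labels' protocols, and bcl2fastq 2.17, STAR and HTSeq with GRCm38/mm10 are named in the submitters' processing notes. The authors deposited whole-number read counts per gene and per genomic window, not normalized. The sources used here do not state how windows were chosen or multi-mapping reads counted. A window's strand was inferred from the order of rows in the deposited table. Rows before the chromosome order starts over were taken as minus and later rows as plus. Every same-strand and opposite-strand statement here rests on this reading.

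Library sizes are the totals of the gene table (16539644 to 28950551 counts). All windows passing filterByExpr were fitted together in edgeR 4.0.16 (quasi-likelihood, group only, R 4.3.3), with Benjamini-Hochberg adjustment and 0.05 as the threshold. Genes were fitted likewise with TMM factors. DESeq2 1.42.0 and the other alternatives are in the closing section. GENCODE vM21 gave positions and transcript sequence. On simulated counts for the 33851 windows, with 200 of them changed, 65.6% of simulated 4-fold changes and 9.68% of simulated 2-fold ones were called. Far more windows were called in the data, 12310 higher and 915 lower, which makes the adjusted threshold less strict there. The simulated shares therefore do not give the share of real changes that can be called. Depth sets the precision: a count of 0 allows up to 3 counts, and SDs and p-values measure the spread between 4 libraries a group.

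Since the design text takes injured and naïve ganglia from each of 4 mice, libraries with the same number were paired, although the labels do not say that the number marks the mouse. Deviations from the group means correlated at 0.134, 0.224, 0.05 and 0.161 within pairs 1 to 4.

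The members and lists were chosen with earlier results of these data known. With windows within 100 bases or with identical counts taken as 1, those named are the 8 called windows with the smallest p, the 6 largest rises and up to 6 falls that changed the same way in every pair at a mean of at least 1 CPM, the window with the most counts of each combination with at least 10 windows, and up to 6 called windows in exons. Some of these appear only in the counts, and the values of 1 gene that the rule takes are not reported here. A window near Eml4 that the rule also names is listed in 2 rows and is no member.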

Additional observations from a re-analysis of the deposited data

Results flagged for a closer look

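Within groups of 4 libraries, a library stood apart from the others in 7 of 114 groups of values examined, and chance flags about 1 in 20. Naïve 2 was the lowest for the sum of all multi-class windows (3142 CPM) and for Simple_repeat with B2 (2057 CPM), while naïve 2 was the highest at the Rnf41 window chr10:128433039-128433064 (153 CPM). Naïve 4 was the highest for the sum of L1 with Alu (12 CPM), at chr4:136598974-136598999 opposite Kdm1a (2.08 CPM) and at chr19:56384866-56384891 opposite Nrap (0.543 CPM). At the Nrap window injury 2 was also the highest of its group (7.53 CPM). The split of the 4 injury libraries into a high and a low pair at Simple_repeat with B2 loci is not found by this search, which looks for 1 library apart.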

How the results depend on the processing

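Of the 857 tested members 206 were higher and 11 lower. Higher counts under other settings were 111 with factors from the windows themselves, 129 with overlapping windows merged, 315 without naïve 2, injury 2 and injury 3 (chosen after seeing the data) and 317 with DESeq2, and 172 to 241 with 1 library left out. Lower counts were 54 with window factors, 5 with the gene table's TMM factors, with DESeq2 size factors, with merged windows and with the replicate block, 7 with no filter and with DESeq2, 6 without the 3 libraries, and 4 to 14 with 1 library left out.

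For Simple_repeat with B2 (138 higher, 0 lower), 66 were higher and 3 lower with window factors and 260 and 1 without the 3 libraries, 2 were lower with no filter and with DESeq2, and 107 to 168 were higher and 0 to 1 lower with 1 library left out. For Simple_repeat with Alu (27 higher, 1 lower), 16 were higher at a mean of at least 1 CPM, 14 with merged windows and 44 with DESeq2, and 24 to 36 with 1 library left out. Its lower count was 7 with window factors, 0 with no filter, at 1 CPM, with the replicate block, without the 3 libraries and with DESeq2, and 0 to 1 with 1 library left out. The causes were not tested, apart from merging and stricter filters leaving fewer windows to test.

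The log2 ratio of the summed CPM of all members (0.60) was 0.23 as a share of the window table and 0.36 to 0.79 with 1 library left out. Of 467 values for 26 called windows under other settings, 408 kept their call, 59 lost it and none reversed, and 18 windows kept their call in all. The replicate block ended 3 of these calls, all given above. No genome sequence was used, so A-rich and TTTT stretches beside windows were not run. Few 2-fold changes were called in the simulation, whose adjusted threshold was stricter than that of the data.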
